A study of Mus musculus with 6 samples.

Results

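F-box protein genes were followed in RNA sequencing of CD4+ T cells that had been cultured for 48 h under Th9 polarizing conditions. The members were all genes of the authors' gene-level table whose name starts with Fbxl, Fbxo or Fbxw followed by a digit. This rule uses names alone, within a table that left out 25 other F-box-named genes, most of them with few or no counts. It found 54 genes among the table's 11242 entries, of which 15 are Fbxl, 30 are Fbxo and 9 are Fbxw genes. One of them, Fbxo30, a ubiquitin ligase subunit best known from wasting muscle, was 2.20-fold higher in T cells lacking Cul5 and was the only F-box gene called different. Over all genes tested 1.03% were called, so 1 of 54 is a share close to the background. Of 9 F-box genes that lay lower in every Cul5 cKO sample than in any WT sample, Fbxl20, Fbxo32 and Fbxo2 had the lowest p-values, and none passed the adjusted threshold. Groups without overlap, in either direction, made up 25.9% of the family and 27.5% of all genes tested. Most of the family, 43 of 54 genes, differed by less than 0.25 on the log2 scale, as did 8305 of all 12925 genes tested.

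Cullin-RING ligases attach ubiquitin to proteins and are built on a cullin scaffold that binds a RING protein at one end and a substrate receptor at the other. F-box proteins are the receptors of the CUL1 branch: the F-box motif docks on the adaptor SKP1, and the rest of the protein holds the substrate. The complex of SKP1, CUL1 and an F-box protein is called SCF. FBXL proteins bind substrates through leucine-rich repeats, FBXW proteins through WD40 repeats, and FBXO proteins carry other or no recognised domains. CUL5, the scaffold deleted here, works in a sister branch that uses SOCS box receptors such as CIS instead. In T cells SCF receptors are known for the turnover of cell cycle inhibitors, NF-kB inhibitors, MYC and NOTCH1.

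The groups were 3 WT and 3 Cul5 cKO samples, all C57BL/6. The cKO mice were Cul5fl/flCD4-Cre, in which Cre from the CD4 promoter removes internal exons of Cul5 in all T cells, CD8 lineage included. By the study's methods the WT controls were Cul5fl/fl littermates without CD4-Cre, so the floxed allele was shared by both groups, and the mice were 8 to 10 weeks old. Naive CD4+ T cells were enriched with magnetic beads, stimulated through CD3 and CD28, and given IL-4, TGF-β and anti-IFN-γ. The labels number the replicates but do not say that each is a separate animal, so p-values measure the spread between these samples, which may be partly technical.

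Levels are given as CPM, counts scaled to a common library size after TMM adjustment, and levels of different genes are compared only as TPM, which is scaled to transcript length. Apart from 1 library, totals were 23111689 to 23454552 estimated counts, while WT replicate 3 held 3944803, so its low genes carry the most counting error. Cul5 itself was 64.4, 69.3 and 65.0 CPM in WT replicates 1 to 3 and 10.6, 14.2 and 13.1 CPM in Cul5 cKO replicates 1 to 3, which is 19.1% of WT (adjusted p = 0.000992), with reads from the exons that remain included. The 8 CD4 T cell markers, with Il9, the cytokine that defines Th9 cells, summed to 2855 to 3110 CPM in WT and 3229 to 3879 CPM in Cul5 cKO. By log2 fold change 2 of the 8 were higher and 6 lower in Cul5 cKO. In each direction 1 of them was called, where 1.03% of all genes tested were called. NK markers summed to at most 0.253 CPM in any library. Erythroid markers summed to 1.05 CPM in Cul5 cKO replicate 2 and to at most 0.171 CPM in any other library. The B cell markers Cd79a and Ms4a1 were 10.3 and 4.18 CPM in Cul5 cKO replicate 3, against 1.48 to 4.55 CPM and 0 to 0.562 CPM in the other 5 libraries. In that library the CD8 markers (Cd8a, Cd8b1) summed to 11.6 CPM, against 4.30 to 6.53 CPM elsewhere. The myeloid markers (Lyz2, Csf1r, Itgam) ranged from 0.912 to 7.93 CPM, highest in Cul5 cKO replicate 2. In bulk RNA a lower value cannot be told apart between fewer cells that express a gene and less RNA per cell.

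All 54 F-box genes passed the expression filter. Of the 25 F-box-named genes that the gene-level table left out only 2 passed it, so the pass was largely set by the choice of members. In WT cells 33 of them averaged 10 TPM or more, 18 lay between 1 and 10 TPM, and 3 were under 1 TPM. Fbxo5 stood first with 61.7 ± 0.290 TPM (SD, n = 3). It encodes EMI1, an inhibitor of the anaphase-promoting complex. Also among the highest 6 were Fbxw2 with 60.7 ± 4.02 TPM and Fbxl14 with 54.5 ± 4.91 TPM. FBXL14 is a receptor for the transcription factor SNAI1. Fbxl6 came after Fbxl14 with 54.1 ± 3.88 TPM and Fbxw11 with 45.9 ± 2.97 TPM. FBXW11 is one of the paired βTrCP receptors that recognise phosphorylated IκBα and β-catenin. The values of neighbours in this order overlapped in 49 of 53 pairs, so the order within the top genes is not fixed by 3 samples. The sample ranges of Fbxl6 and Fbxw11 did not overlap, which makes them the first neighbours that were separate.

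The bottom of the order was 108-fold lower than the top, with Fbxl22 at 0.573 ± 0.0808 TPM, Fbxl2 at 0.627 ± 0.197 TPM and Fbxo47 at 0.679 ± 0.156 TPM. Fbxl2 and Fbxl22 share exonic bases with the far more abundant genes Ubp1 and Herc1 on the other strand, and the strand of the libraries was not given in the sources used here, so their low values are uncertain. Fbxo30 ranked 41 of 54 in WT cells with 5.72 ± 0.988 TPM and 29 of 54 in Cul5 cKO cells with 13.1 ± 0.359 TPM. Fbxl20 went the other way, from rank 25 with 16.8 ± 3.17 TPM to rank 34 with 9.43 ± 1.73 TPM.

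**Figure D1:**
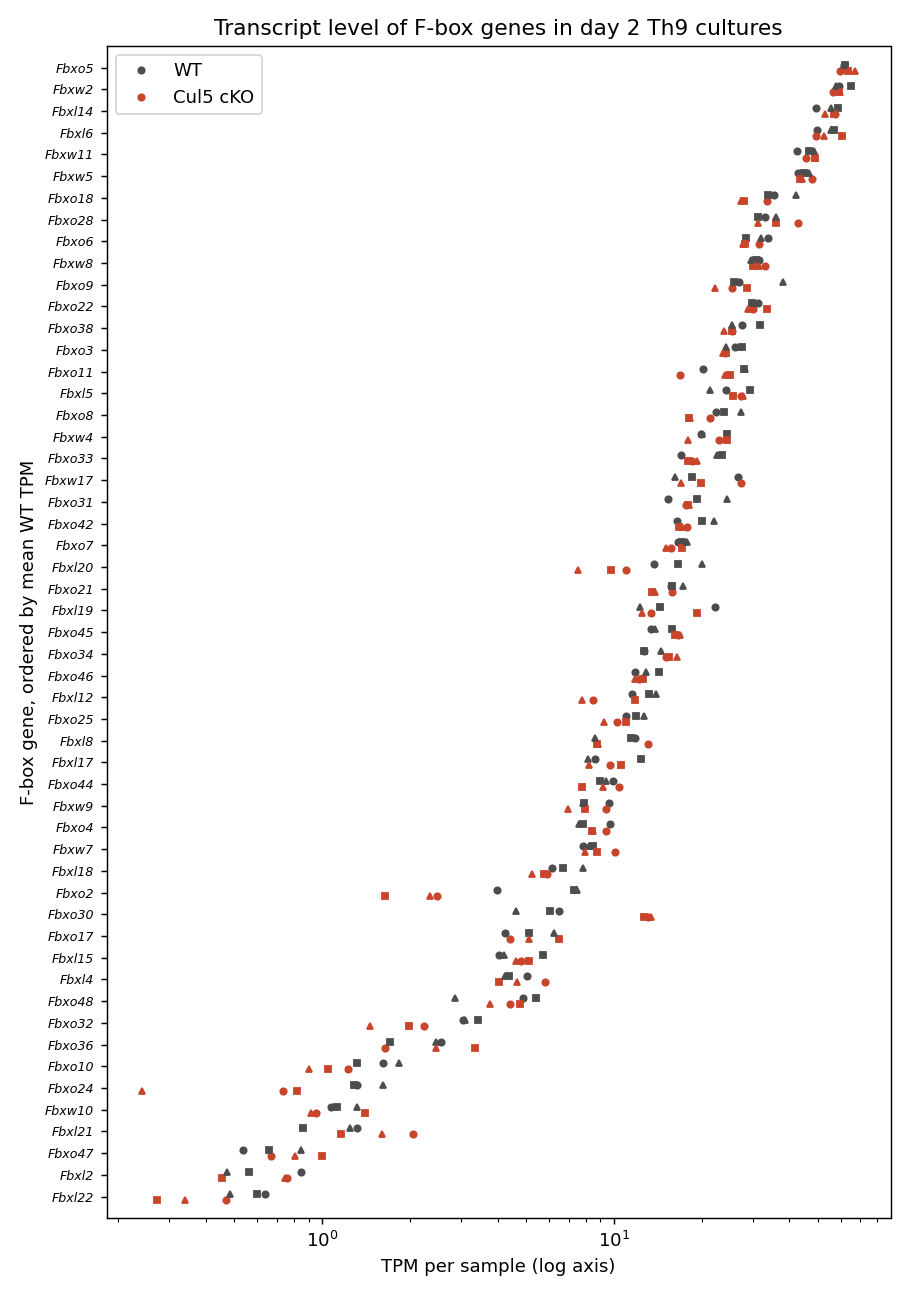
Level of 53 of the 54 F-box genes in TPM on a log axis, 1 point per sample (circle, square and triangle for replicates 1, 2 and 3; grey WT, red Cul5 cKO), ordered by the WT mean. Grey and red points lie together for most genes, while Fbxo30 is shifted to the right and Fbxl20, Fbxo2 and Fbxo32 to the left in Cul5 cKO.

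The comparison of Cul5 cKO with WT asks which F-box genes differ in transcript level when the CUL5 branch is lost. In the edgeR quasi-likelihood test over 12925 genes, Fbxo30 was the 1 F-box gene called at an adjusted p under 0.05, and it was higher. Over all genes tested 1.03% were called, and 0.611% were called higher, so the family's 1 of 54 is a share close to the background. At an unadjusted p under 0.05 there were 9 F-box genes, of which 2 were higher and 7 lower. The background was 21.3% of all genes, with 10.9% higher and 10.4% lower, and the F-box share was 16.7%. The samples of the groups did not overlap for 14 F-box genes (25.9%), 5 higher and 9 lower, against 27.5% of all genes. The median log2 fold change of the family was -0.02, and that of all genes was -0.01. The median absolute log2 fold change was 0.13 over the family and 0.17 over all genes. Without Cul5 cKO replicate 3, the library with the raised B cell markers, 5 F-box genes had an unadjusted p under 0.05, against 12.4% of all genes.

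By class, of 30 Fbxo genes 7 had an unadjusted p under 0.05, of 15 Fbxl genes 2 did, and of 9 Fbxw genes none did. The Fbxo share was 23.3% and the Fbxl share 13.3%, against 21.3% of all genes tested. Every Fbxw gene but Fbxw10 lay within 0.25 of no difference on the log2 scale, and Fbxw10, at about 1 to 2 CPM, shares sequence with the more abundant Trim16. No test of the classes against each other was made. Beyond 0.5 on the log2 scale there were 2 genes higher (Fbxo30 and Fbxl21) and 7 lower (Fbxo2, Fbxo24, Fbxo32, Fbxl22, Fbxl20, Fbxo10 and Fbxw10). Only Fbxo30 among these 9 passed the adjusted threshold. Of all 12925 genes tested, 1928 lay beyond 0.5 in either direction.

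**Figure D2:**
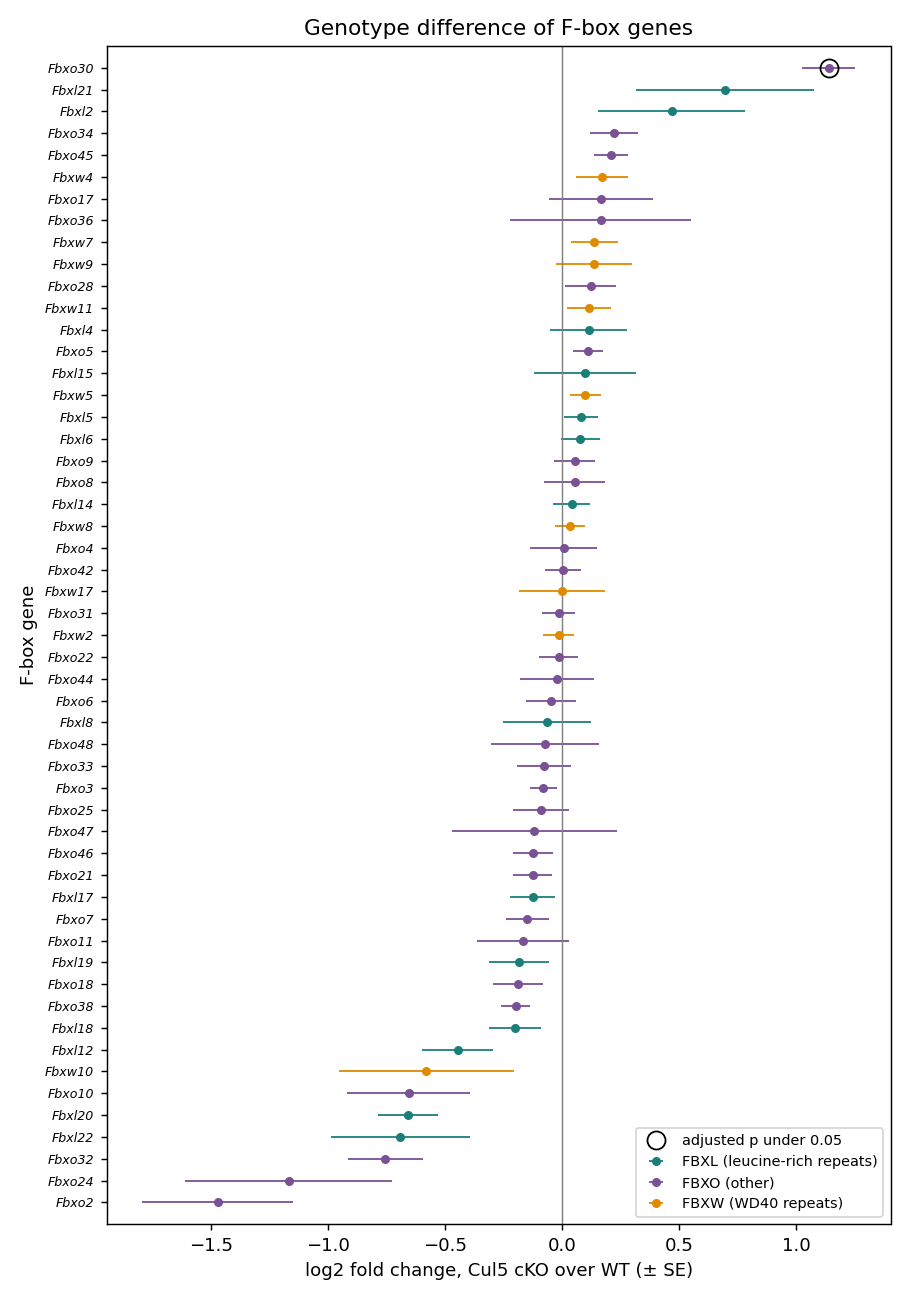
Log2 fold change of Cul5 cKO over WT for 53 of the 54 F-box genes with its standard error from the edgeR fit, coloured by class, with a ring at an adjusted p under 0.05. Fbxo30 is at 1.14, most genes lie within 0.25 of 0, and the low tail ends with Fbxo24 and Fbxo2.

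Fbxo30 encodes an F-box protein with a zinc finger, known in muscle as MUSA1, where it takes part in atrophy. The gene (ENSMUSG00000047648) lies on the plus strand of chr10:11281330-11298052 in GRCm38. It measured 17.0, 15.9 and 12.7 CPM in WT replicates 1 to 3 and 34.4, 32.8 and 35.3 CPM in Cul5 cKO replicates 1 to 3. The lowest Cul5 cKO sample was well above the highest WT sample, and the 3 Cul5 cKO samples spanned less than the WT samples. The log2 fold change was 1.14 ± 0.11 (SE), with an unadjusted p of 1.34e-05 and an adjusted p of 0.0127. The exact two-sided permutation test over samples gave p = 0.1, the smallest that 3 against 3 allows. These values rest on 50 to 397 reads in the WT and 749 to 793 reads in the Cul5 cKO libraries. The log2 fold change ranged from 1.06 to 1.22 over all settings tried. The adjusted p lost the threshold in 3 of the 6 fits that left out 1 library, at 0.0771 without WT replicate 2, 0.0596 without WT replicate 3 and 0.0801 without Cul5 cKO replicate 3, where the numbers of all genes called dropped from 133 to 2, 2 and 3. Cul5 cKO replicate 3 is the library with the raised B cell markers, and Fbxo30 was 34.4 and 32.8 CPM in the other 2 Cul5 cKO libraries.

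Both annotated transcripts of Fbxo30 were higher in all 3 Cul5 cKO samples. They share the coding sequence of 2238 bases and differ in their first exon and their length. Fbxo30-202 starts at position 11281330 with a first exon that ends at 11281500, and Fbxo30-201 starts at 11281587. Fbxo30-202 held 69.2% ± 3.37 of the gene's counts in WT and 67.1% ± 2.38 in Cul5 cKO (SD, n = 3 each), so the makeup differed by less than the spread between samples. Its level was 10.5 ± 1.71 CPM in WT against 22.9 ± 1.23 CPM in Cul5 cKO. Fbxo30-201 was 4.66 ± 0.807 CPM in WT against 11.2 ± 0.872 CPM in Cul5 cKO. The ratio of means was thus 2.18 for the one and 2.41 for the other. Kallisto splits reads between transcripts by estimation, and reads from the shared exons of a 50-base library carry no information on the first exon.

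The bases between the end of the first exon of Fbxo30-202 and the start of Fbxo30-201 lie upstream of the inner start and are shown because both transcripts were higher. They are chr10:11281501-11281586, plus strand, GRCm38.p6, from the RefSeq promoter window of the gene, with GC boxes (GGGCGG, on either strand) in capitals. The stretches upstream of Fbxl20-201, the main Fbxl20 transcript (chr11:98149613-98149866, minus strand), and of Fbxo2 (chr4:148160418-148160620, plus strand) are shown beside it as those of lower genes. The Fbxl20 stretch lies within the gene, since the minor transcript Fbxl20-207, with 3.08% of the WT counts, starts further upstream. Fbxo32 was not among the windows.
Fbxo30: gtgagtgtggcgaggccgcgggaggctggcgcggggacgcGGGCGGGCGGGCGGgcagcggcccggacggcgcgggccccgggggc
Fbxl20: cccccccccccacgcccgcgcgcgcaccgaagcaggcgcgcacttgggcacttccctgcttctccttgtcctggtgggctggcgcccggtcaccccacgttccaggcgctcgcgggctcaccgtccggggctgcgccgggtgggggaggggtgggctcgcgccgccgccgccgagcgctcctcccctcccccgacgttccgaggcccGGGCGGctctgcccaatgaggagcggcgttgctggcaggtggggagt
Fbxo2: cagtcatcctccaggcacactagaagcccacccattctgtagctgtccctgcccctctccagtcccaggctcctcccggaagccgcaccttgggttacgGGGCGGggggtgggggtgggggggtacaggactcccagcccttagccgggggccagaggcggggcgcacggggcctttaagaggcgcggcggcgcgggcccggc

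The Fbxo30 stretch of 86 bases holds 3 overlapping GC boxes and has 88.4% G and C. The Fbxl20 and Fbxo2 stretches, of 254 and 203 bases, hold 1 each with 77.2% and 71.9% G and C. The stretches differ in length and in their place in the gene, so these counts were not compared with the direction of change. RefSeq windows of 300 bases, 250 before and 50 after a start, were matched for 41 of the 54 members, with 57 windows in all. All 54 members passed the expression filter, while the windows of all genes were not limited to genes that did. The shares that follow therefore do not set the family against other expressed genes. GC boxes were in 68.4% of the member windows and in 35.7% of all 32851 windows. The CCAAT box was in 29.8% of member windows and 37.4% of all windows. The spaced STAT letters TTCNNNGAA were in 5.26% of member windows and 8.30% of all, and TTCNNNNGAA, the wider spacing, in 5.26% and 6.95%. The FOXO letters TGTTTAC were in 0 of the 57 member windows and 3.65% of all windows, and the hypoxia element core ACGTG in 26.3% and 19.6%. Neither STAT spacing was found in the first listed window of Fbxo30, Fbxl20 or Fbxo2, the only window of each gene that was read singly. These matches describe letters in a short window, and no binding was measured.

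Fbxl20, Fbxo32 and Fbxo2 were the next members by p, all lower in Cul5 cKO with no overlap between groups. Fbxl20 encodes SCRAPPER, known from the turnover of a presynaptic protein. It was 63.2, 70.2 and 71.6 CPM in WT replicates 1 to 3 and 49.6, 44.3 and 35.4 CPM in Cul5 cKO replicates 1 to 3. All 3 Cul5 cKO samples lay under the lowest WT sample, with Cul5 cKO replicate 3 lowest. The log2 fold change came to -0.66 ± 0.13 (SE), with an adjusted p of 0.0671, a level of 63.3% of WT. The coding transcript Fbxl20-201 and the transcript without a coding sequence Fbxl20-202 had ratios of means of 0.645 and 0.619. In replicates 2 and 3 alone, where 8.83% of all genes were called, the log2 fold change of Fbxl20 was -0.83 (adjusted p = 0.0195).

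Fbxo32, which encodes atrogin-1, a muscle atrophy ligase and textbook target of FOXO factors, measured 15.2, 16.3 and 16.4 CPM in the WT samples and 11.0, 9.90 and 7.38 CPM in the Cul5 cKO samples. The WT samples were tight and the Cul5 cKO samples were spread below them. Its log2 fold change came to -0.76 ± 0.16 (SE), with an adjusted p of 0.0780, and -0.92 in replicates 2 and 3 alone (adjusted p = 0.0355). Without Cul5 cKO replicate 3, its lowest sample, the log2 fold change of Fbxo32 was -0.61 and that of Fbxl20 was -0.53. The part of the B cell RNA of that library in these values was not tested.

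Fbxo2 encodes FBG1, which binds high-mannose sugar chains on glycoproteins. It measured 3.16, 5.54 and 6.07 CPM in WT replicates 1 to 3 and 1.95, 1.31 and 1.91 CPM in Cul5 cKO replicates 1 to 3. WT replicate 1 stood nearer to the Cul5 cKO samples than the other 2 WT samples did. The log2 fold change came to -1.47 ± 0.32 (SE), with an adjusted p of 0.0838 on 24 to 128 reads per WT library and 30 to 45 per Cul5 cKO library, and -1.83 in replicates 2 and 3 alone (adjusted p = 0.0291). Replicate 1 of both genotypes deviated together over all genes (correlation of deviations from the group mean 0.370), and what sets it apart is not given by the labels. DESeq2 on the same counts called Fbxo30, Fbxl20, Fbxo32 and Fbxo2, with 693 of all genes called. Limma on log2 values called none of the family.

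**Figure D3:**
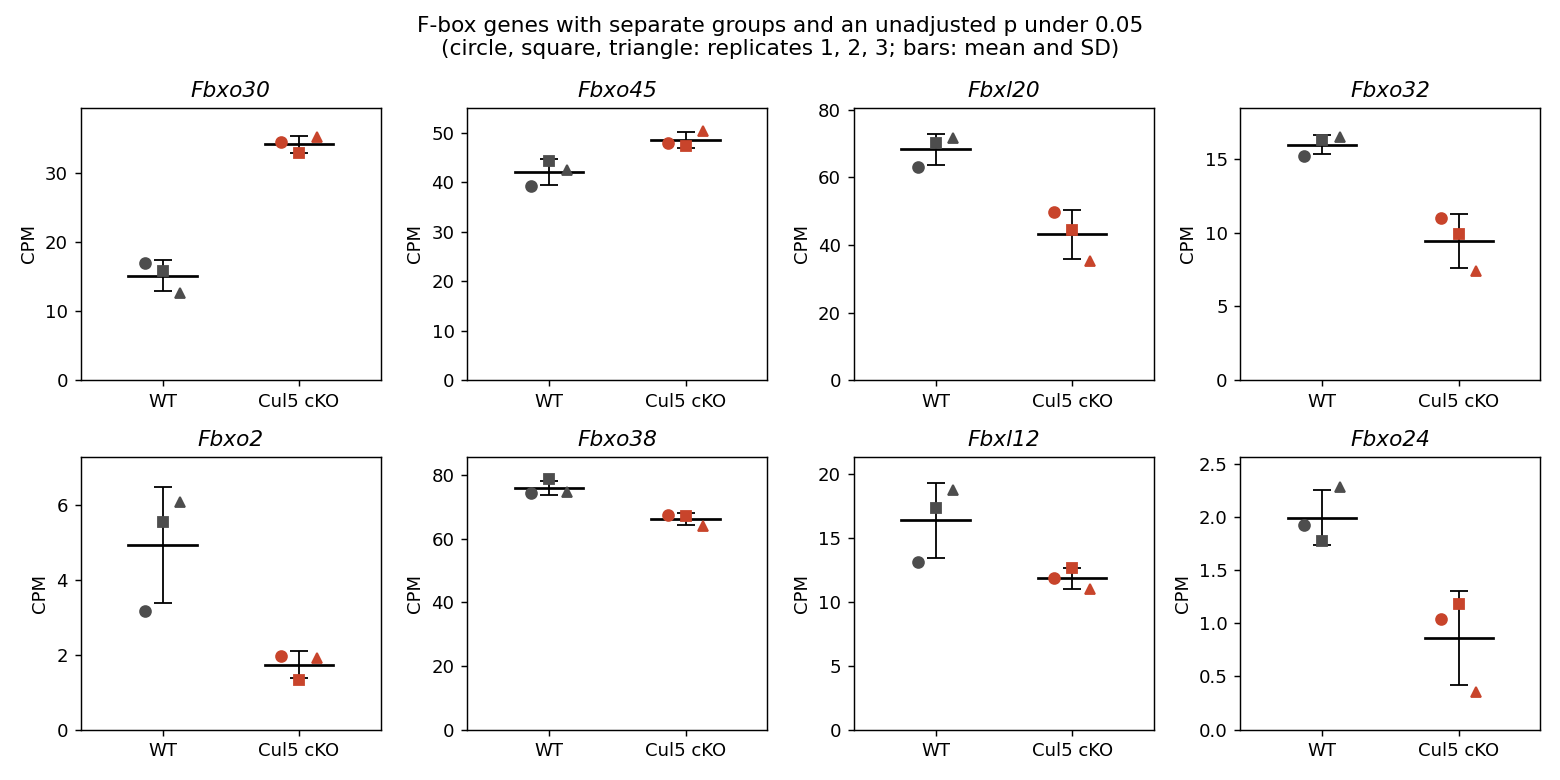
CPM in each sample (circle, square, triangle for replicates 1, 2, 3) with group mean and SD for the 8 F-box genes whose groups did not overlap and whose unadjusted p was under 0.05. Fbxo30 and Fbxo45 are higher in every Cul5 cKO sample than in any WT sample, and the other 6 genes are lower.

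**Figure D4:**
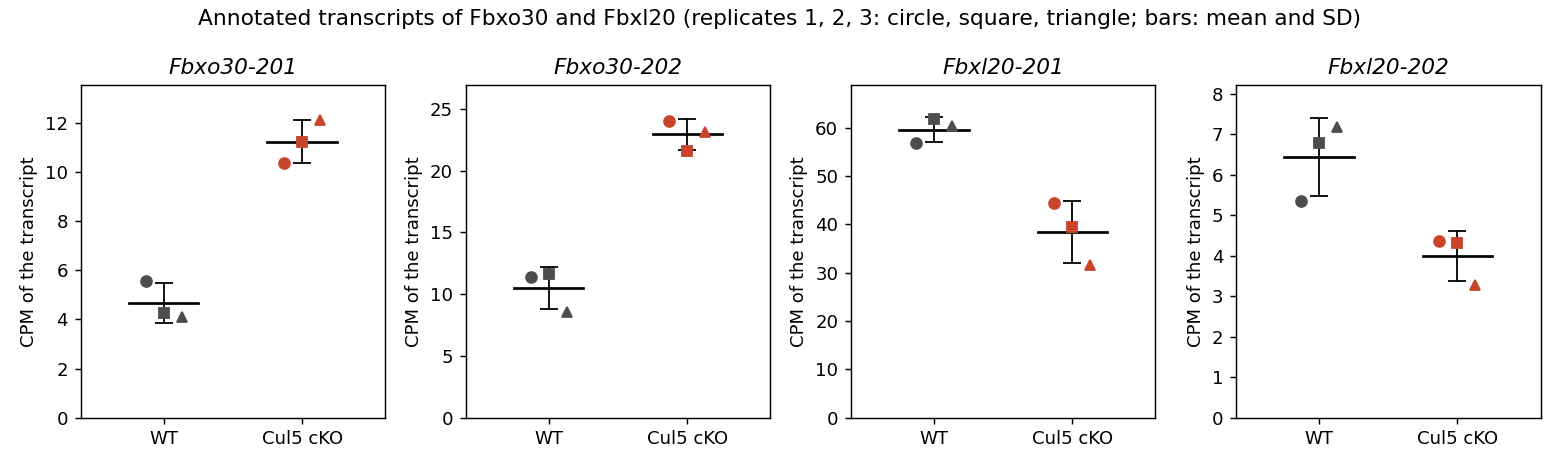
CPM of annotated transcripts in each sample with group mean and SD. Both Fbxo30 transcripts are higher and both Fbxl20 transcripts lower in all 3 Cul5 cKO samples.

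A smaller shift was measured for Fbxo38, the receptor known for the turnover of PD-1 in T cells. It was 74.5, 78.6 and 74.7 CPM in WT against 67.5, 67.0 and 64.1 CPM in Cul5 cKO. The groups did not overlap, the Cul5 cKO level was 87.1% of WT, and the log2 fold change stood at -0.20 ± 0.06 (SE) with an adjusted p of 0.142. Pdcd1, which encodes PD-1, had a log2 fold change of 0.33 ± 0.46 (SE) and did not pass the test. Fbxo45, whose protein joins the ligase MYCBP2 rather than CUL1, was 39.3, 44.3 and 42.5 CPM in WT against 47.9, 47.3 and 50.5 CPM in Cul5 cKO (log2 fold change 0.21 ± 0.07, SE; adjusted p = 0.174). Mycbp2 itself had a log2 fold change of -0.10 ± 0.17 (SE).

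Fbxl12 measured 13.1, 17.3 and 18.7 CPM in WT against 11.8, 12.7 and 11.0 CPM in Cul5 cKO, with a log2 fold change at -0.45 ± 0.15 (SE) and an adjusted p of 0.165. It shares 1890 exonic bases with Ubl5 on the other strand, which held 6232 reads to its 1588 over the 6 libraries, so its value is uncertain. Fbxo24 was 1.92, 1.77 and 2.28 CPM in WT against 1.04, 1.18 and 0.356 CPM in Cul5 cKO (log2 fold change -1.17 ± 0.44, SE; adjusted p = 0.194). Those values rest on 8 to 45 reads per library and on a gene that overlaps Pcolce. Fbxo10 had an unadjusted p of 0.0392 with overlapping groups (log2 fold change -0.66, adjusted p = 0.214).

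The remaining 6 of the 14 genes without overlap, Fbxo5 among them, had an unadjusted p above 0.05. Fbxo34 was 21.6 to 21.9 CPM in the WT samples and 22.6, 28.2 and 25.2 CPM in Cul5 cKO replicates 1 to 3, with a log2 fold change of 0.22 ± 0.10 (SE). Fbxo3 was 63.3 to 66.3 CPM in WT and 61.1 to 62.7 CPM in the cKO samples, a shift of -0.08 ± 0.06 (log2, SE). Fbxo7, whose human counterpart is a gene of familial parkinsonism, was 20.9 to 23.5 CPM in WT and 18.7 to 20.5 CPM in the cKO samples (-0.15 ± 0.09, log2 fold change, SE, and 0.03 after all libraries were thinned to the shallowest). Fbxl2 and Fbxl22, both under 2 CPM in every sample and both overlapped by abundant genes, were at 0.47 ± 0.32 and -0.69 ± 0.30 (log2 fold change, SE). Fbxl21 had overlapping groups of 0.735 to 1.77 CPM and 1.45 to 2.26 CPM (log2 fold change 0.70 ± 0.38, SE).

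The unit mattered for genes with several transcripts, and 33 of the 54 members had at least 2 transcripts with 10% or more of their counts. Fbxo8 was 17.2 to 23.1 CPM in the WT samples and 20.1 to 24.1 CPM in the cKO samples, with overlapping groups. Per length it was 22.5, 23.9 and 27.4 TPM in WT replicates 1 to 3 and 21.4, 18.2 and 18.3 TPM in Cul5 cKO replicates 1 to 3, with no overlap. Its log2 fold change ran from -0.35 to 0.17 over the settings tried, and none of them called it. The long transcript Fbxo8-201 held 54.8%, 49.7% and 15.5% of the counts of the gene in WT replicates 1 to 3 and 44.1% to 52.1% in the Cul5 cKO samples. WT replicate 3, the shallow library, thus stood apart in its transcript makeup.

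By role, none of the 7 genes tied to the cell cycle and DNA repair had an unadjusted p under 0.05. The largest of their values in either direction were Fbxo18 at -0.19 ± 0.11 and Fbxw7 at 0.14 ± 0.10 (log2 fold change ± SE). FBXW7 is the receptor for cyclin E, MYC, NOTCH1, JUN and MCL1, and its gene was 24.5 to 27.1 CPM in WT against 25.4 to 31.3 CPM in Cul5 cKO. Fbxo5, first by level, was 65.5 to 68.1 CPM in WT against 69.0 to 74.7 CPM in Cul5 cKO, with a log2 fold change at 0.11 ± 0.06 (SE) and an adjusted p of 0.360. The groups of Fbxo5 did not overlap although the shift was small.

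Of the 10 genes tied to signalling, transcription or the clock, Fbxo30 was called and 2 more, Fbxo32 and Fbxo38, had an unadjusted p under 0.05. Over all genes tested 1.03% were called and 21.3% had an unadjusted p under 0.05, against 30.0% of this list. Fbxo30 was put on the list with earlier results known, so its call is no result about signalling genes. The median of the 10 was -0.09. Fbxo11, the receptor for BCL6, was 50.4, 69.7 and 72.1 CPM in WT against 42.3, 65.2 and 62.2 CPM in Cul5 cKO. Replicate 1 was the lowest sample of either genotype for this gene, and its log2 fold change of -0.17 ± 0.19 (SE) was within that spread. Fbxl19, whose protein binds the IL-33 receptor, had a log2 fold change of -0.19 ± 0.13 (SE), which turned to 0.36 in limma on the authors' table, and Fbxw11 was 0.11 ± 0.09 (SE).

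The log2 fold changes of the 4 genes of iron, mitochondria and growth control lay between 0.03 and 0.11, and none had an unadjusted p under 0.05. Fbxl5, the iron sensor that controls IRP2, was 41.0, 44.3 and 45.0 CPM in WT against 44.3, 44.5 and 48.6 CPM in Cul5 cKO. Fbxw8, which works with CUL7, was 102 to 108 CPM in WT against 102 to 112 CPM in Cul5 cKO. Among the receptors that bind sugar chains, Fbxo2 had an unadjusted p under 0.05 and Fbxo6, Fbxo17 and Fbxo44 did not. Fbxo6 was 19.3 to 23.8 CPM in WT against 19.6 to 21.6 CPM in Cul5 cKO, and the log2 fold changes of the last 3 genes lay between -0.05 and 0.17. The fifth of that list, Fbxo27, was not tested, with 11 reads at most in a WT library.

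The partners of F-box proteins were taken from a list of 18 genes of the SCF core and its regulators. None of them was called. An unadjusted p under 0.05 was found for 2 of the 18 (11.1%, against 21.3% of all genes tested), and both were higher. The median log2 fold change was 0.03, and 15 of 18 lay within 0.25, as did 8305 of all 12925 genes tested. Cul1 was 131 to 137 CPM in WT against 130 to 140 CPM in Cul5 cKO (log2 fold change 0.02 ± 0.06, SE). Skp1a, the adaptor, was 0.03 ± 0.07 and Rbx1, the RING subunit, 0.05 ± 0.08 (log2 fold change ± SE). The 2 genes were Cdc34, an E2 enzyme that builds ubiquitin chains on SCF substrates, and Ube2m, the E2 enzyme that attaches NEDD8 to cullins. Cdc34 was 147, 131 and 134 CPM in WT against 174, 167 and 177 CPM in Cul5 cKO (log2 fold change 0.33 ± 0.07, SE; adjusted p = 0.0724). Ube2m was 181, 163 and 168 CPM in WT against 207, 198 and 208 CPM in Cul5 cKO (0.26 ± 0.06, SE; adjusted p = 0.104). Every Cul5 cKO sample of both lay above every WT sample. Groups without overlap made up 16.7% of the 18 genes and 27.5% of all genes tested. DESeq2, which called 693 of all genes, called both.

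F-box genes that carry other symbols, 8 by textbook knowledge, were compared in the same way. Of the 6 tested none had an unadjusted p under 0.05. Skp2, the receptor for the cell cycle inhibitor p27, was 0.15 ± 0.16, and Btrc, the other βTrCP gene, was -0.17 ± 0.08 with groups that did not overlap (log2 fold change ± SE). Ccnf, Kdm2a and Kdm2b lay between 0.00 and 0.11, Lrrc29 was at -0.35 ± 0.25, and Ect2l and Nccrp1 were too low to be tested.

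Transcripts of textbook substrates were measured too, although F-box receptors act on the proteins. Of 18 such genes 1 was called. Rrm2, a ribonucleotide reductase subunit and cyclin F substrate, was 389, 378 and 363 CPM in WT against 527, 469 and 532 CPM in Cul5 cKO (log2 fold change 0.43 ± 0.07, SE; adjusted p = 0.0389). Cdkn1b, which encodes the SKP2 substrate p27, was 72.4, 84.1 and 96.2 CPM in WT against 56.8, 55.0 and 53.0 CPM in Cul5 cKO (-0.61 ± 0.10, SE; adjusted p = 0.0506). No sample of either gene crossed into the other group, and groups without overlap made up 22.2% of this list against 27.5% of all genes. Unadjusted p-values under 0.05 were also found for Jun (-0.38), Cdc25a (0.25) and Gata3 (-0.16, log2 fold change each), for a total of 5 of 18, which is 27.8% against the background of 21.3%.

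**Figure D5:**
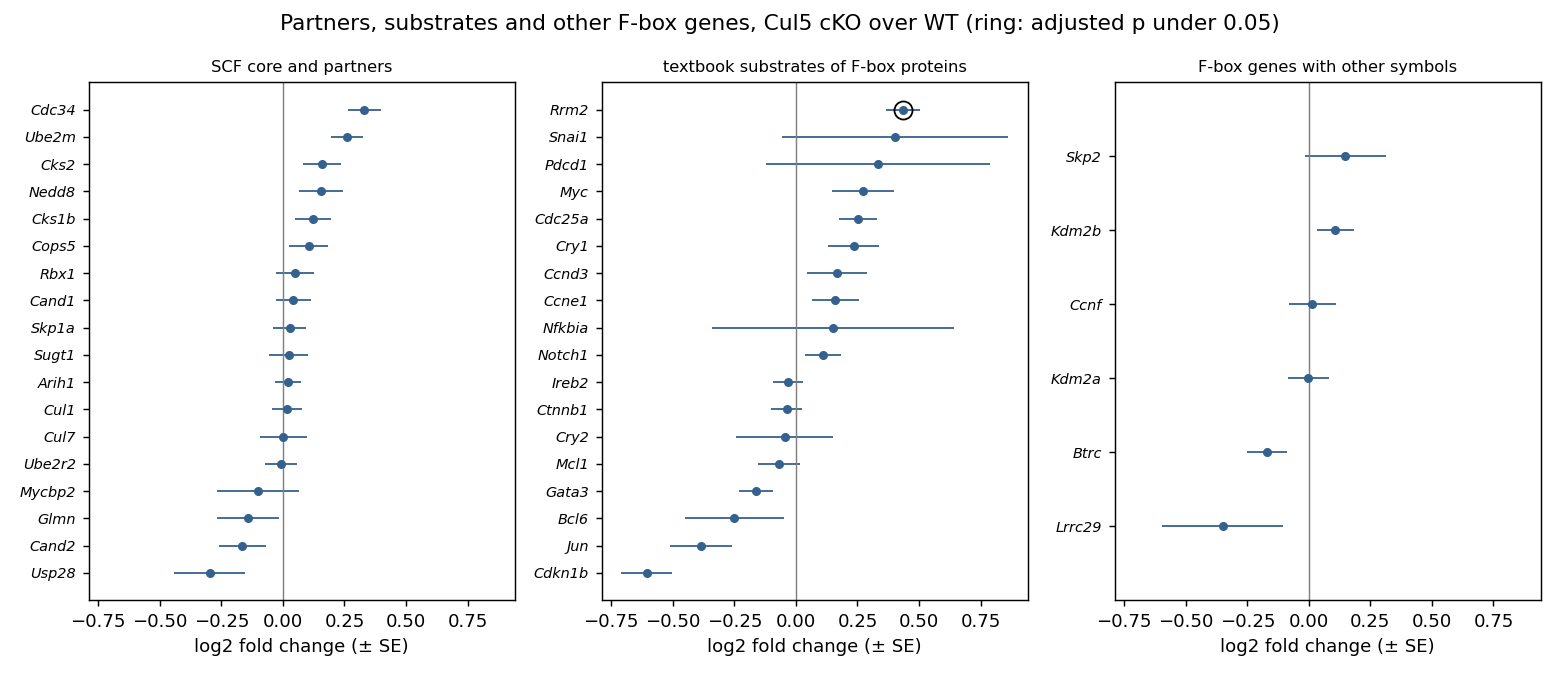
Log2 fold change of Cul5 cKO over WT with its standard error for genes of the SCF core and partners, textbook substrates and F-box genes with other symbols, with a ring at an adjusted p under 0.05. Cul1, Skp1a and Rbx1 lie near 0, Rrm2 is ringed, and Cdkn1b is lowest at -0.61.

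The transcript files list 79 genes with an F-box name of this form, so 25 were outside the gene-level table. Of these, 12 had 0 counts in all 6 libraries and 4 more had at most 3 counts in any, which is the floor used here. The group is mainly the mouse Fbxw gene cluster, with 15 of the 25 genes between Fbxw13 and Fbxw28. Only 2 of the 25 passed the expression filter. Fbxo15, a gene known from embryonic stem cells, was 0.433 to 0.506 CPM in WT against 0.391 to 1.07 CPM in Cul5 cKO (log2 fold change 0.72 ± 0.45, SE; adjusted p = 0.402). Fbxw19 was 0.759 to 0.897 CPM in WT against 0.695 to 0.920 CPM in Cul5 cKO (-0.12 ± 0.30, SE). Both ranges overlapped between genotypes. Fbxl16 had an estimated count of 26.1 in WT replicate 1 and of at most 4 in any other library.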

How the data were processed

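RNA was measured in 3 WT and 3 Cul5 cKO samples. Poly-A RNA was read as single ends of 50 bases, and the authors used kallisto 0.46.2 to assign reads to GRCm38 transcripts and edgeR 3.34.0 for normalization. The deposited files hold estimated counts and TPM per transcript for each sample, and a gene-level table of log2 CPM. That table's other columns hold the authors' comparison, with fold changes on the log2 scale and unadjusted p-values, and were not used. Estimated counts were summed by gene with GENCODE annotation of GRCm38 and rounded. The test was edgeR 4.0.16 (filterByExpr, TMM, quasi-likelihood) in R 4.3.3, with genotype alone and Benjamini-Hochberg adjustment over 12925 genes. The SE is the log2 fold change divided by the root of the F value. DESeq2 1.42.0 and limma 3.58.1 served as alternatives. The scripts were tested on simulated data. Sequences are from RefSeq windows of GRCm38.p6; promoter motifs were matched on both strands.

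Genes described singly were members with an unadjusted p under 0.05 and groups that did not overlap, and the 6 with the highest WT TPM, of which 1 is not reported here and is left out of the figures. Other members described, such as Fbxo3, Fbxo8, Fbxo10, Fbxo34, Fbxl21 and Fbxl22 and those of the role lists, were chosen after their values were seen. Fbxo18 is annotated as Fbh1. The members and the lists were chosen with earlier results of these data known. Read depth limits precision to counting error beside the spread between samples, and genes with at most 3 counts were at the floor.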

Additional observations from a re-analysis of the deposited data

How the results depend on the processing

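Of the settings tried, the number of F-box genes called was 4 with DESeq2 (693 of all genes), 2 with no filter beyond 1 count (228), 0 with limma on the authors' table (4), on log2(TPM + 1) (17) and on log2(TPM + 0.1) (1), and 9 by the study's unadjusted criterion (2362). It was 4 with replicate 1 against the others as a term (1688) and 6 in replicates 2 and 3 alone (1153). Counts scaled from TPM gave 60 genes in all and 1 F-box gene. At an unadjusted p under 0.05 there were 15 F-box genes under the replicate 1 term and 14 when replicates 2 and 3 were fitted alone. Leaving out 1 library gave 0 to 2 F-box genes called, 2 to 316 genes in all, 5 to 13 F-box genes at an unadjusted p under 0.05, 0 to 1 SCF genes called and a family median of -0.038 to 0.0049. SCF genes called were 2 with DESeq2, 2 by the study's criterion, 3 with the replicate 1 term and 2 in replicates 2 and 3 alone. The family median was -0.059 by library size alone, 0.0038 without a filter, -0.054 on log2(TPM + 1) and -0.057 on log2(TPM + 0.1). The cause was not tested. The median of all genes was -0.051 by library size alone, -0.024 without a filter, -0.046 on log2(TPM + 1) and -0.054 on log2(TPM + 0.1).

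With a replicate block 4 F-box genes, 1 SCF gene and 848 genes in all were called. Deviations of same-numbered samples correlated at 0.37, 0.21 and 0.02. WT replicate 2 correlated nearly as well with Cul5 cKO replicate 3 (0.20), and WT replicate 3 correlated best with Cul5 cKO replicate 2 (0.09). The labels do not say whether the replicate numbers pair the samples, and these values do not settle it.

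Over all settings 26 of the 54 members changed sign at least once, each of them within 0.19 of 0 in the reported fit. Fbxl14 was -0.0024 by library size alone and -0.035 in replicates 2 and 3 alone, and ranged from -0.027 to 0.087 over single libraries left out. Fbxl6 was -0.0012 on log2(TPM + 1) and -0.0013 on log2(TPM + 0.1). Fbxw2 was 0.0046 without a filter, 0.022 after thinning to the shallowest library, and ranged from -0.040 to 0.026 over single libraries left out. Fbxo30 kept its direction in all settings.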
